A study of Mus musculus with 4 samples.

Results

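The genes that make and break down retinoic acid were followed in chromatin accessibility maps of fetal mouse female germ cells, from Snf5 knockout and control embryos. The set was chosen by name and holds 10 genes of the 21887 protein-coding genes placed on the mouse genome: Rdh10, Aldh1a1, Aldh1a2, Aldh1a3, Dhrs3, Cyp26a1, Cyp26b1, Cyp26c1, Crabp1 and Crabp2. Snf5 is the product of Smarcb1 and a core subunit of SWI/SNF, a complex that slides and evicts nucleosomes. Female germ cells of C57BL/6 embryos at embryonic day 15.5 were sorted on the green fluorescence of an Oct4-EGFP reporter, which all groups carried, and their open DNA was tagged by a transposase and sequenced (ATAC-seq). The conditional Snf5 knockout, Snf5 CKO, gave 2 libraries, numbered 1 and 2, and control embryos gave 2 more, Control 1 and Control 2. The sources used here give neither the Cre driver of the knockout nor the alleles of the controls. Nor do they say if replicates are separate animals, and their spread may be technical.

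Retinoic acid is made from vitamin A in steps. Rdh10 oxidises retinol to retinaldehyde, the Aldh1a enzymes oxidise retinaldehyde to retinoic acid, and Dhrs3 reduces retinaldehyde back to retinol. The Cyp26 enzymes hydroxylate retinoic acid and so mark it for removal, and Crabp1 and Crabp2 bind it in the cell. In the fetal ovary retinoic acid induces Stra8, a gene of meiotic entry, and in the fetal testis Cyp26b1 clears it. In the gonad much of this machinery is known from the somatic cells around the germ cells.

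The data are lists of called broad peaks, 1 list for each library, with no read counts. A gene counted as open in a library if any peak touched a window of 1 kb on either side of its lower- or higher-coordinate end. It was called kept when all 4 libraries were open, lost when the controls were both open and the Snf5 CKO libraries both closed, and gained in the reverse case. Covered bases are the bases under called peaks in the gene plus 20 kb on either side. With 2 libraries against 2, the smallest p of an exact two-sided permutation test is 0.333, so no single gene can pass 0.05. That value is also the p of every member below whose groups do not overlap. A library of pooled cells does not tell fewer open cells from less openness in each cell.

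The lists held 45422 peaks in Snf5 CKO 1, 28625 in Snf5 CKO 2, 39465 in Control 1 and 36730 in Control 2, over 24.3, 16.9, 27.4 and 25.2 Mb. Sequencing depth is unknown. Smarcb1 was open in both controls and in neither Snf5 CKO library. The lists held 209 and 150 peaks on the Y chromosome in Snf5 CKO and 83 and 107 in controls, although the cells were labelled female, and none of 4 Y-linked genes checked (Ddx3y, Eif2s3y, Kdm5d, Uty) was open in any library. All 10 germ cell markers, among them Ddx4 and Dazl, were open in every library, as were 55.0% of all protein-coding genes. Of 11 markers of ovarian supporting cells, 9 were also open in all 4 libraries, and Amhr2 and Gata4 in none. Expression was not measured in these data.

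For 7 of the 10 genes RefSeq (GRCm38.p6, the assembly behind mm10) gives a promoter window, from 250 bases before to 50 bases after an annotated transcription start. Crabp2, Rdh10 and Aldh1a3 are named only. The windows below show the contrast between promoters that did and did not carry peaks, read 5′ to 3′ on the strand of the gene. Capitals mark a DR5 repeat, the arrangement that retinoic acid receptors are best known to bind, and the letters TATAAA.
Cyp26a1, chr19:37697558-37697857, plus strand: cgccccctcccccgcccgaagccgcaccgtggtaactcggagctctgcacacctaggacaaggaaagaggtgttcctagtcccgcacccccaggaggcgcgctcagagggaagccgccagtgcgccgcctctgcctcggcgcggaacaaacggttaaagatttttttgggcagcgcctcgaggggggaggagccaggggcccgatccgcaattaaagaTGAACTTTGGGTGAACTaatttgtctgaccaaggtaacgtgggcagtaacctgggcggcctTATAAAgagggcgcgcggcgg
Cyp26b1, chr6:84593761-84594060, minus strand: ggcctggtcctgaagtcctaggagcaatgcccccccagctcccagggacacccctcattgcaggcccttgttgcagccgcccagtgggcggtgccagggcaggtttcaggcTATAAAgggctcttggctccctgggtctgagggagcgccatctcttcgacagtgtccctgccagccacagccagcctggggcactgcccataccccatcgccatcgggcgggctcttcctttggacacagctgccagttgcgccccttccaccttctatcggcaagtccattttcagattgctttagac
Aldh1a2, chr9:71215539-71215838, plus strand: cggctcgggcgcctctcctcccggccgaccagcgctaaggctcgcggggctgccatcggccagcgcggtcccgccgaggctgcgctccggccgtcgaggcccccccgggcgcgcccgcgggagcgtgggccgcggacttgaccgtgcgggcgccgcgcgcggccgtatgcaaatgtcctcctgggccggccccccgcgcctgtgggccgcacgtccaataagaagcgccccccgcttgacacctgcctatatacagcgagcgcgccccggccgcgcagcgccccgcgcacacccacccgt
Aldh1a1, chr19:20492333-20492632, plus strand: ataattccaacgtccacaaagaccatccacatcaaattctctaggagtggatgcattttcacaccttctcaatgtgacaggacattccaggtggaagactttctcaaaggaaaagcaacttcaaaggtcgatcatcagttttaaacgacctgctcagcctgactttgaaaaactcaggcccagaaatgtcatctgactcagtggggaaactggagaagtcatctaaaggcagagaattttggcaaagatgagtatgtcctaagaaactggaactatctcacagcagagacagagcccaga
Crabp1, chr9:54764498-54764797, plus strand: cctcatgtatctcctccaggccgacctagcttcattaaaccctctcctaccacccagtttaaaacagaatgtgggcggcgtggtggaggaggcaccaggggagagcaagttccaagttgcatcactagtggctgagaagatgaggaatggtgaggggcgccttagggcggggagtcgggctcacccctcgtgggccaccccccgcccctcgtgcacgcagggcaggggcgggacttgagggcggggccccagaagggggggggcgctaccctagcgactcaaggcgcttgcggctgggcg
Dhrs3, chr4:144892577-144892876, plus strand: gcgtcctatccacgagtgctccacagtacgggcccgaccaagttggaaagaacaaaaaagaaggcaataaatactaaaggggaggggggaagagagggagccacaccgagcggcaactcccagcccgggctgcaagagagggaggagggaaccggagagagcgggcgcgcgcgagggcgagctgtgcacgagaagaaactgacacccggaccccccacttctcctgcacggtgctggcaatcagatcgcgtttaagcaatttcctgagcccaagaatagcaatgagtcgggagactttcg

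A DR5 repeat was searched as 2 hexamers (AGGTCA and its variant AGTTCA, or with a leading G the variants GGGTCA and also GGTTCA, on either strand) in the same direction with 5 bases between them. Of the 10 windows of the members, only that of Cyp26a1 held one, at bases 219 to 235 of the window, which is chr19:37697776-37697792. A DR5 repeat was found in 0.0800% of all 21263 promoter windows of protein-coding genes. At least 1 hexamer stood in 41.2% of all windows and in 2 of the 10 member windows. No member window held the repeats with spacers of 1 or 2 bases (DR1, DR2). TATAAA stood in the windows of Cyp26a1 and Cyp26b1, against 12.6% of all windows, with no overlap with the DR5 repeat. Relative to the annotated start it began at 29 in Cyp26a1, after the start, and at −139 in Cyp26b1, before it. Neither match is therefore called a TATA box here. The repeat of Cyp26a1 lay inside a called peak in Snf5 CKO 2, Control 1 and Control 2. In Snf5 CKO 1 the peak began 13 bases beyond it, at 37697805.

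The promoter windows differed in CpG content, and the number of CpG dinucleotides ran from 1 to 50 in 300 bases, against a median of 13 over all windows. The Aldh1a2 window had 50, as many as or more than 99.1% of windows, and was covered by peaks over 300 and 270 bases in Snf5 CKO and 300 and 300 bases in controls. The Cyp26a1 window had 26 and the first Dhrs3 window 21. Those of Aldh1a1 had 3 and 1, that of Cyp26c1 had 5 and that of Cyp26b1 had 9. None of the windows of these last 3 genes was touched by a peak in any library. The Crabp1 window had 17 and was covered over 175 and 123 bases in Snf5 CKO, against 297 and 300 bases in controls. The remaining Dhrs3 windows, which start farther into the gene, had 10 and 9 and were covered over 33 bases or fewer.

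At gene ends, 5 of the 10 genes were kept: Rdh10, Aldh1a2, Aldh1a3, Cyp26a1 and Crabp1. Cyp26c1 was lost and none was gained. Dhrs3 lacked a peak in Snf5 CKO 2 alone, Crabp2 lacked one in Snf5 CKO 1 alone, and Aldh1a1 and Cyp26b1 had none in any library. Over all 21887 genes, 55.0% were kept, 2.97% lost, 0.187% gained, 8.29% open in other patterns and 33.6% without a peak. Of the members, 6 were open in each Snf5 CKO library and 8 in each control, where 60.4% and 56.4% of all genes were open in Snf5 CKO and 63.3% and 63.0% in controls. The members thus stood near the background in how many carried a peak, and the count of 1 lost gene is too small to be read against it.

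**Figure D1:**
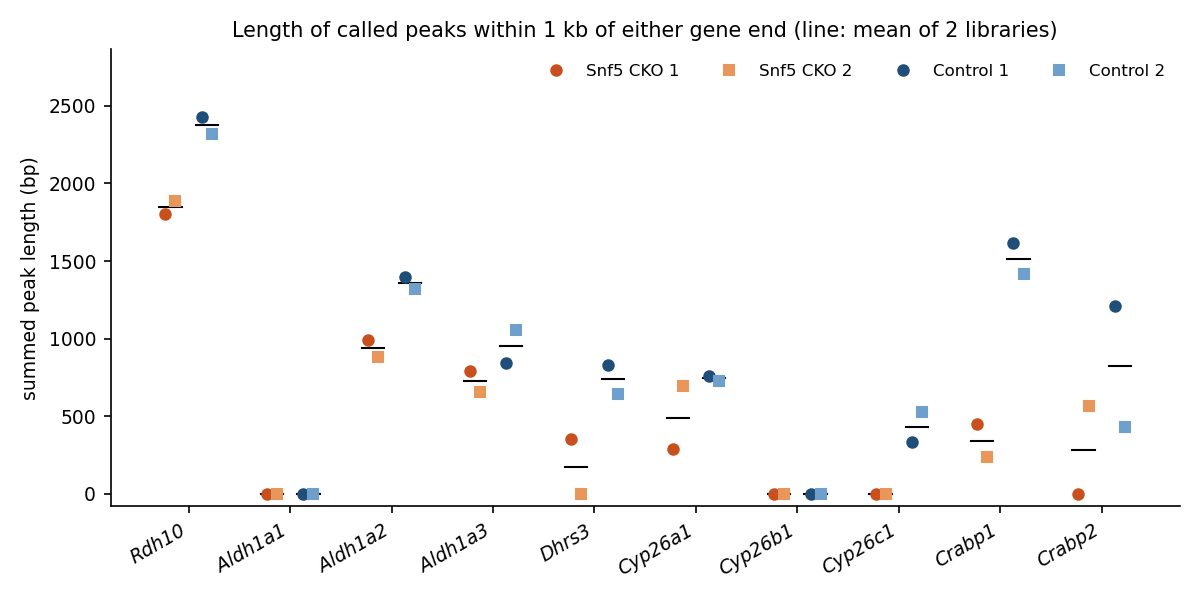
Summed length in bp of the called peaks that touch the 1 kb windows at either end of each of the 10 genes (points: libraries; line: mean of 2). At the 5 kept genes both Snf5 CKO libraries lie below both controls, with the widest gap at Crabp1 and the narrowest at Cyp26a1.

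Peaks at the ends of all 5 kept members were shorter in both Snf5 CKO libraries than in both controls, and none was longer. Over the 12030 kept genes the same call was made at 77.3%, and the reverse at 1.27%, so the members followed what most genes did. The Snf5 CKO mean was 69.1% of the control mean at the median kept member (range 22.7% to 77.8%) and 75.5% at the median kept gene.

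Among the synthesis genes, Rdh10, Aldh1a2 and Aldh1a3 were kept with shorter end peaks and Aldh1a1 was not open at its ends. Rdh10 (chr1:16105882-16132550), the enzyme of the first oxidation, had a peak of 1804 and 1888 bp at its lower-coordinate end in Snf5 CKO, against 2427 and 2319 bp in controls. The groups did not overlap, and the gap between them was 431 bp. The same peak reaches over an end of Rpl7, a ribosomal protein gene, so it cannot be assigned to Rdh10 alone. A second kept region, below the gene at an end of 4930444P10Rik, measured 557 and 571 bp in Snf5 CKO, against 668 and 1019 bp in controls. The only peak inside Rdh10 was one of 258 bp in Control 2.

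Aldh1a2 (chr9:71215789-71296243), known in the embryo as the main source of retinoic acid, had a peak across its annotated start in every library. Its length was 994 and 884 bp in Snf5 CKO, against 1397 and 1322 bp in controls. Fold enrichment, the authors' value for the peak over local background, was 4.12 and 3.57 in the Snf5 CKO lists and 4.02 and 3.77 in the control lists. These folds stood at the 49.7th and 17.6th percentile of the Snf5 CKO lists and at the 55.8th and 44.1st percentile of the control lists. By fold the peak was thus of middling or low rank in each list. By −log10 q it stood at the 50.2nd and 17.2nd percentile in Snf5 CKO and at the 74.4th and 61.5th in controls. About as wide was a region some way below the gene, with peaks of 1283 and 1231 bp in Snf5 CKO and 1525 and 1390 bp in controls. At both places every Snf5 CKO peak was shorter than every control peak.

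Aldh1a3 (chr7:66390892-66427477), another enzyme of the last step, had its peak at the higher-coordinate end, at 792 and 659 bp in Snf5 CKO and 841 and 1059 bp in controls. The groups were separated by 49 bp. A kept region below the gene lay at an end of Lrrk1 and covered 789 and 330 bp in Snf5 CKO, against 757 and 811 bp in controls, with the groups overlapping. A short peak above the gene was present in Snf5 CKO 1, with 200 bp, and in Control 1, with 201 bp.

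Aldh1a1 (chr19:20492583-20643463), the third enzyme of that step, differed from the others in having no peak within 1 kb of an end in any library. Inside the gene it held the only gained region among the members, chr19:20520768-20521126, with peaks of 359 and 271 bp in Snf5 CKO and none in controls. The folds were 3.54 and 4.46, at the 27.2nd and 52.0th percentile of their lists. A second region was shared by Snf5 CKO 1, with 392 bp, and Control 1, with 309 bp. Covered bases over the gene and its flanks were 751 and 271 in Snf5 CKO, against 309 and 0 in controls, with the groups overlapping (exact two-sided permutation p = 0.667, n = 2 each). It was the only member whose Snf5 CKO mean exceeded the control mean.

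Dhrs3 (chr4:144892534-144928209), which turns retinaldehyde back to retinol, had no called peak in Snf5 CKO 2 over the whole gene and 20 kb on either side. At its lower-coordinate end the peak measured 352 bp in Snf5 CKO 1, and 832 and 644 bp in controls. Their folds were low in rank, at the 2.23rd percentile in Snf5 CKO 1 and the 13.8th and 7.69th in controls. Inside the gene a lost region, chr4:144910455-144910981, carried peaks of 527 bp in Control 1 and 339 bp in Control 2 and none in Snf5 CKO. The Control 1 peak had a fold of 5.51, at the 90.3rd percentile of its list, and the Control 2 peak 3.14, at the 17.0th. Snf5 CKO 1 had a peak of its own, of 473 bp, below the gene. Covered bases came to 825 and 0 in Snf5 CKO, against 1359 and 983 in controls.

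The breakdown genes Cyp26c1 and Cyp26a1 lie next to each other, and their windows share 6 regions, so their values are not independent. Both are read from the plus strand in RefSeq, and a long non-coding RNA gene, Gm32342, is annotated across Cyp26c1 and up to Cyp26a1. The strip from Cyp26c1 to beyond Cyp26a1 held 2 of the 3 lost regions of the whole set, both with control peaks of low fold.

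**Figure D2:**
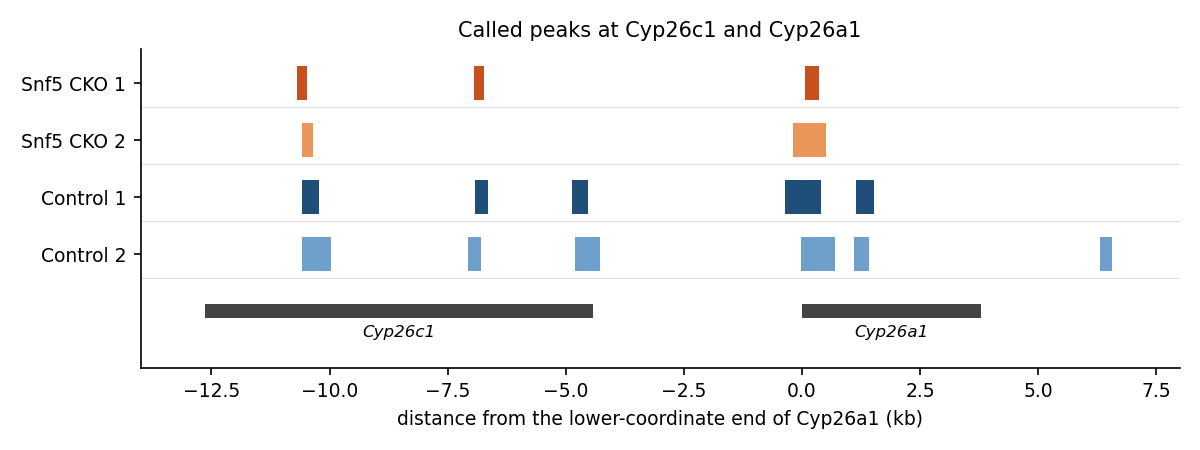
Called peaks (bars) in the 4 libraries across Cyp26c1 and Cyp26a1, by distance in kb from the lower-coordinate end of Cyp26a1; dark bars mark the genes. Peaks at the far end of Cyp26c1 and inside Cyp26a1 appear in both controls and in neither Snf5 CKO library, and the peak at the Cyp26a1 start appears in all 4.

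Cyp26c1 (chr19:37685112-37693320) was the lost member. The lost peak lies at its higher-coordinate end, which is its 3′ end, at chr19:37692878-37693473, and measured 333 bp in Control 1 and 530 bp in Control 2. The folds were 3.07 and 2.92, at the 17.0th and 9.40th percentile of the control lists. No library had a peak within 1 kb of the lower-coordinate end, where the gene starts. The call therefore concerns a peak of low fold rank at the 3′ end and not the Cyp26c1 promoter. Its −log10 q was 4.04 in Control 1 and 2.91 in Control 2, at the 44.8th and 28.4th percentile of their lists. The lost call ended when peaks with a −log10 q under 3 were dropped from all lists, which left 0 lost members. Windows of 2 kb also left 0. There a Snf5 CKO 1 peak inside the gene, chr19:37687051-37687250, touched the window at the lower-coordinate end. The 3′ peak itself stayed absent from both Snf5 CKO libraries.

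Cyp26a1 (chr19:37697738-37701536), the enzyme that retinoic acid itself induces through its promoter, was open at its start in all 4 libraries. The start peak measured 289 and 694 bp in Snf5 CKO, against 762 and 730 bp in controls, so Snf5 CKO 2 fell short of the nearer control by 36 bp and Snf5 CKO 1 by far more. The folds were 4.29 and 3.73 in the Snf5 CKO lists, at the 55.5th and 23.8th percentile, and 3.04 and 2.87 in the control lists, at the 15.7th and 8.32nd. Inside the gene a second peak, in the region chr19:37698838-37699256, was lost, with 372 and 321 bp and folds of 2.48 and 2.64 in the controls. These folds stood at the 2.11th and 3.64th percentile of the control lists. In the windows of the members the lowest fold of any called peak was 2.79 in Snf5 CKO 1 and 2.94 in Snf5 CKO 2. Farther below, inside Cyp26c1, a kept region covered 200 and 238 bp in Snf5 CKO and 351 and 625 bp in controls. A further region there had 200 bp in Snf5 CKO 1, none in Snf5 CKO 2, and 285 bp in each control.

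Over the gene and its flanks Cyp26a1 had 689 and 932 covered bases in Snf5 CKO, against 2103 and 2746 in controls. The means were 811 ± 172 bp and 2425 ± 455 bp (SD, n = 2 each), and the gap of 1171 bp between the groups was wider than the range within either. Cyp26c1 had 1255 and 1132 covered bases in Snf5 CKO, against 2103 and 2987 in controls, most of them the same peaks. Without peaks of −log10 q under 3, the difference for Cyp26a1 was −199 bp with overlapping groups, and that for Cyp26c1 turned to 84.5 bp.

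Cyp26b1 (chr6:84571414-84593908), read from the minus strand, had no peak at either end, its annotated start included. Within the gene, though, there was a kept region at chr6:84590270-84590648, with peaks of 379 and 223 bp in Snf5 CKO and 212 and 289 bp in controls. Its folds were 4.63 and 5.62 in the Snf5 CKO lists and 3.39 and 4.18 in the control lists, and the lengths of the groups overlapped. Among the 13 kept regions of the set it was the only one where a Snf5 CKO peak was the longest of the 4. A region deeper in the gene was without a peak in Snf5 CKO 1, and its peaks measured 200 bp in Snf5 CKO 2, against 463 and 239 bp in controls. Another had 250 bp in Snf5 CKO 1, none in Snf5 CKO 2, and 405 and 378 bp in controls. Covered bases were 829 and 423 in Snf5 CKO, against 2238 and 906 in controls, and the groups stood 77 bp apart.

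**Figure D3:**
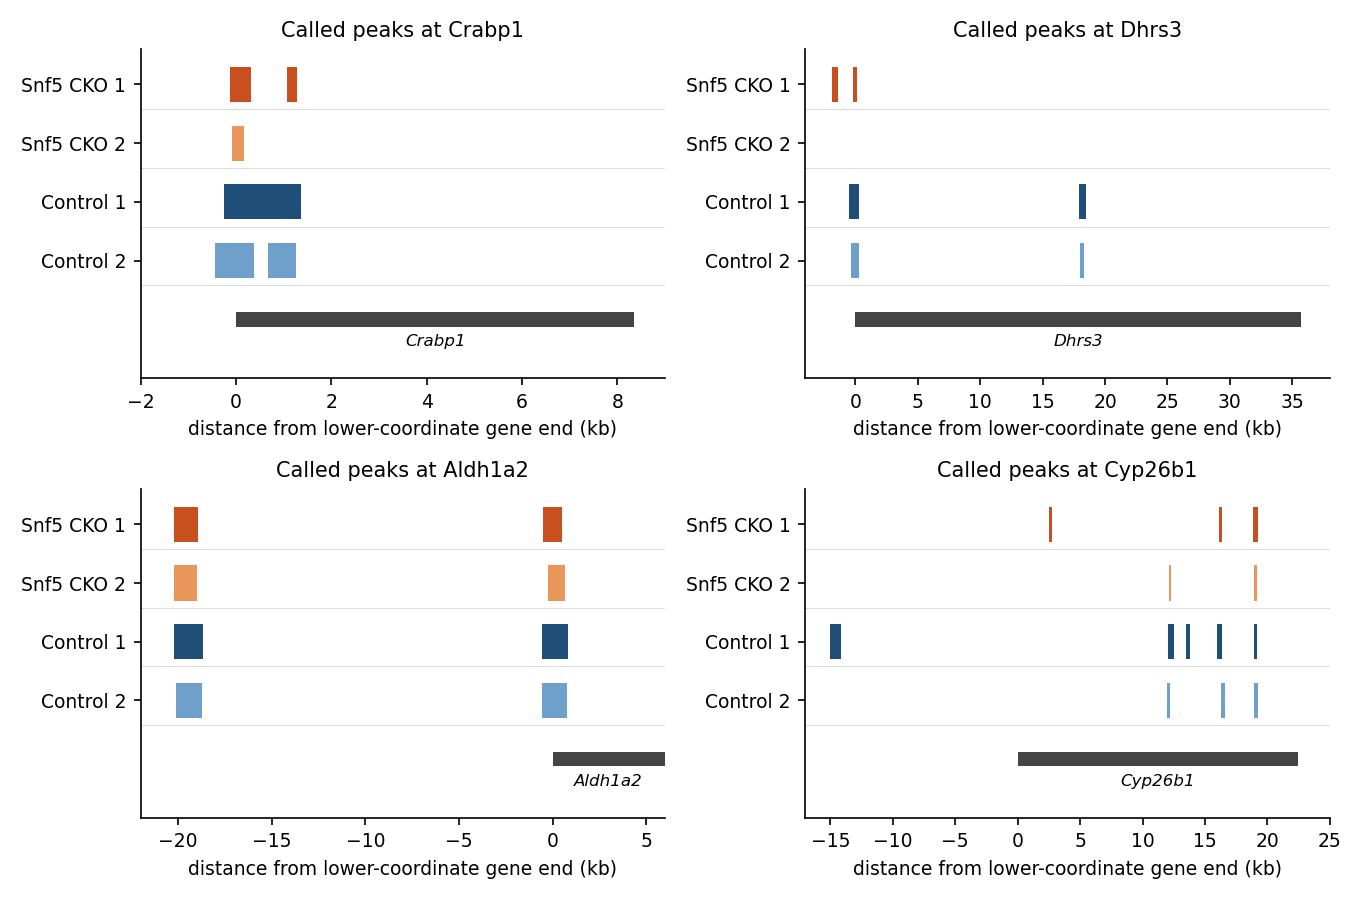
Called peaks (bars) in the 4 libraries at Crabp1, Dhrs3, Aldh1a2 and Cyp26b1, by distance in kb from the lower-coordinate end of each gene; dark bars mark the genes. At Crabp1 the controls cover more of the start than either Snf5 CKO library, at Dhrs3 Snf5 CKO 2 has no peak, at Aldh1a2 all libraries look alike in place, and at Cyp26b1 peaks lie inside the gene and none at its ends.

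Of the binding proteins, Crabp1 (chr9:54764748-54773110) had the lowest Snf5 CKO share of the kept members. Its start region, chr9:54764303-54766114, was covered over 655 and 237 bp in Snf5 CKO, against 1614 and 1414 bp in controls. Control 1 had 1 unbroken peak of 1614 bp and Control 2 had 2 peaks, of 834 and 580 bp. Snf5 CKO 1 had 2 peaks of 451 and 204 bp, the second just outside the window at the gene end, and Snf5 CKO 2 had 1 peak of 237 bp. As no other peak lay within 20 kb, these are also the covered bases of the whole window, with a Snf5 CKO mean at 29.5% of the control mean. The folds in Snf5 CKO were 3.27 and 3.81 in the first library and 4.50 in the other, and those in controls were 3.58 in Control 1 and 3.76 and 3.37 in Control 2. Crabp1 was no longer kept, and so had no call on end length, when the lists were cut to the same number of peaks or to a −log10 q of at least 3. It had fewer covered bases in Snf5 CKO under both.

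Crabp2 (chr3:87948693-87953372), which carries retinoic acid to its nuclear receptors, had no peak at its ends in Snf5 CKO 1 and a 566 bp peak in Snf5 CKO 2, against 1210 bp in Control 1 and 434 bp in Control 2. The groups overlapped in length. The peak of Control 2 and that of Snf5 CKO 2 did not share a base, and the long peak of Control 1 joined them into 1 region. Their folds, 3.23 in Snf5 CKO 2 and 2.81 and 2.66 in controls, stood at the 7.05th, 8.19th and 3.92nd percentile. Kept regions nearby lay at an end shared by Rrnad1 and Isg20l2, at an end of Nes, and at chr3:87960432-87961208. The last had 638 and 567 bp in Snf5 CKO and 729 and 703 bp in controls. Covered bases in the whole window were 2066 and 3015 in Snf5 CKO, against 4134 and 3351 in controls.

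Over genes with 20 kb on either side, 9 of the 10 members had fewer covered bases in both Snf5 CKO libraries than in both controls, and none had more. Among 19200 genes with a peak in their window, 61.1% had fewer and 4.58% more. The median Snf5 CKO share of the control mean was 57.4% for the members (range 29.5% to 331%) and 71.0% for the 18191 genes covered in a control. The Aldh1a3 call rested on 18 bp between 1781 bp in Snf5 CKO 1 and 1799 bp in Control 1. Covered bases were also scaled to the total length of each list, a choice made after the data were seen. Then 5 members had fewer (Dhrs3, Cyp26a1, Cyp26b1, Cyp26c1 and Crabp1) and Aldh1a1 had more, against 31.3% and 16.4% of the same 19200 genes. Rdh10, Aldh1a2, Aldh1a3 and Crabp2 then overlapped. The 9 and the 5 members both include Cyp26a1 and Cyp26c1, whose windows share most of their peaks, so these counts are not of independent genes.

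**Figure D4:**
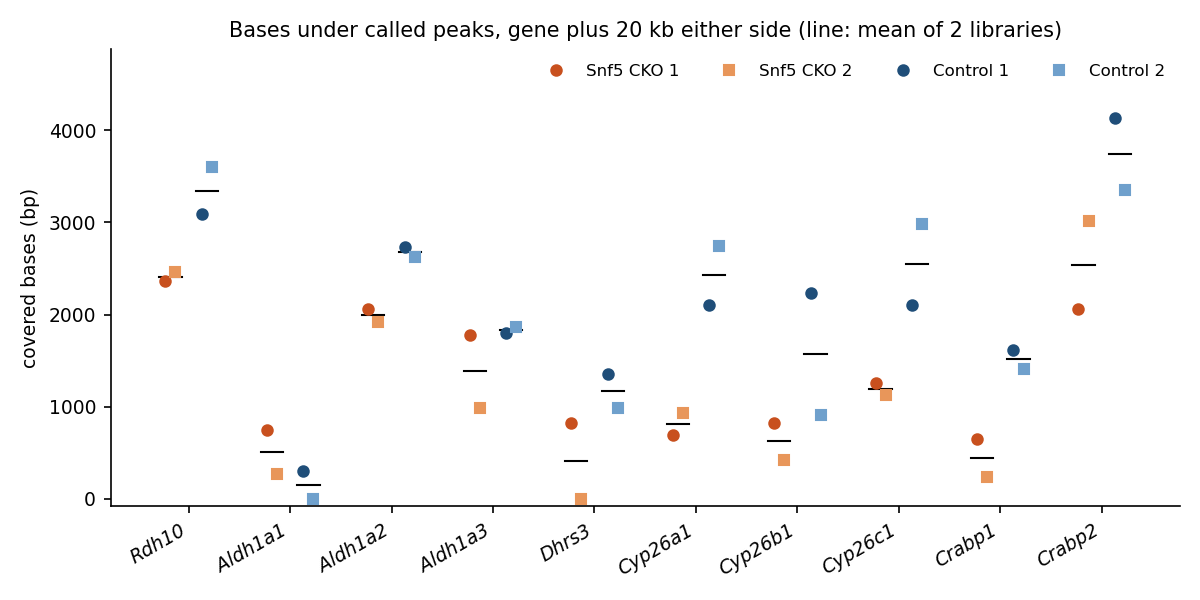
Bases under called peaks in each gene plus 20 kb on either side, for the 10 genes (points: libraries; line: mean of 2). In 9 genes both Snf5 CKO libraries lie below both controls; at Aldh1a1 the groups overlap.

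The windows held 31 merged regions, with a peak in 22 and 17 of them in Snf5 CKO and in 25 and 24 in controls. Of these 13 were kept (41.9%), 3 lost (9.68%) and 1 gained (3.23%), where 29.4%, 7.58% and 5.08% of all 66056 merged regions were kept, lost and gained. The shares of lost and gained regions were near the background. The median fold of the peaks in these windows was below that of the whole list in every library. It was 4.0 and 3.90 in Snf5 CKO and 3.58 and 3.31 in controls. The medians of the whole lists were 4.13 and 4.41 in Snf5 CKO and 3.86 and 3.91 in controls. The median −log10 q was lower too, at 3.25 and 3.2 in Snf5 CKO and 4.2 and 3.09 in controls. For the whole lists it was 4.0 and 4.72 in Snf5 CKO and 4.52 and 4.38 in controls. The highest fold in the windows was 5.40 and 5.62 in Snf5 CKO and 5.51 and 5.76 in controls.

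The rest of the pathway was read at gene ends with the same rule. Over all protein-coding genes 55.0% were kept, 2.97% lost, 0.187% gained and 33.6% without a peak. Of 14 genes for retinoid uptake and storage, 6 were kept (Rbp4, Lrat, Dgat1, Fabp5, Retsat and Scarb1), none was lost or gained, and 7 had no peak at their ends. Of 19 other retinol and retinaldehyde oxidoreductases, 6 were kept, 1 was lost, 1 was gained and 10 had no peak at their ends. The lost one was Adh5, an alcohol dehydrogenase gene, with no peak in Snf5 CKO and 797 and 393 bp in controls. Its highest folds in controls were 3.39 and 2.93. The gained one was Rdh5, a retinol dehydrogenase gene, with 214 and 207 bp in Snf5 CKO and none in controls. Its highest folds in Snf5 CKO were 3.88 and 3.21. Over its wider window Rdh5 nevertheless had fewer covered bases, 2482 and 2590 in Snf5 CKO against 4417 and 4423 in controls.

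Against 55.0% kept and 2.97% lost over all genes, 9 of 13 receptors and their partners were kept. The receptor genes Rarg and Rxrg were lost, while Rarb had no peak at its ends in any library. Its wider window held 5444 and 3101 covered bases in Snf5 CKO and 3452 and 4116 in controls. Rarg had no peak in Snf5 CKO and 1397 and 1383 bp in controls. Its highest folds there were 3.0 and 2.74, below the whole-list medians of 3.86 and 3.91. Rxrg had none in Snf5 CKO and 661 and 455 bp in controls, with folds of 4.97 and 3.85. Of 11 genes known to respond to retinoic acid, 6 were kept, among them Stra8, Bhmg1 (Meiosin) and Rec8, a meiotic cohesin gene. Of these 6, 3 had shorter end peaks in both Snf5 CKO libraries, a call made at 77.3% of all kept genes, and the others overlapped. The Bhmg1 peaks measured 726 and 864 bp in Snf5 CKO, against 1727 and 2182 bp in controls, with no overlap. The Stra8 peaks measured 292 and 200 bp in Snf5 CKO and 1094 and 233 bp in controls, and the groups overlapped. The Rec8 peaks measured 855 and 641 bp in Snf5 CKO and 767 and 616 bp in controls, with the groups overlapping.

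**Figure D5:**
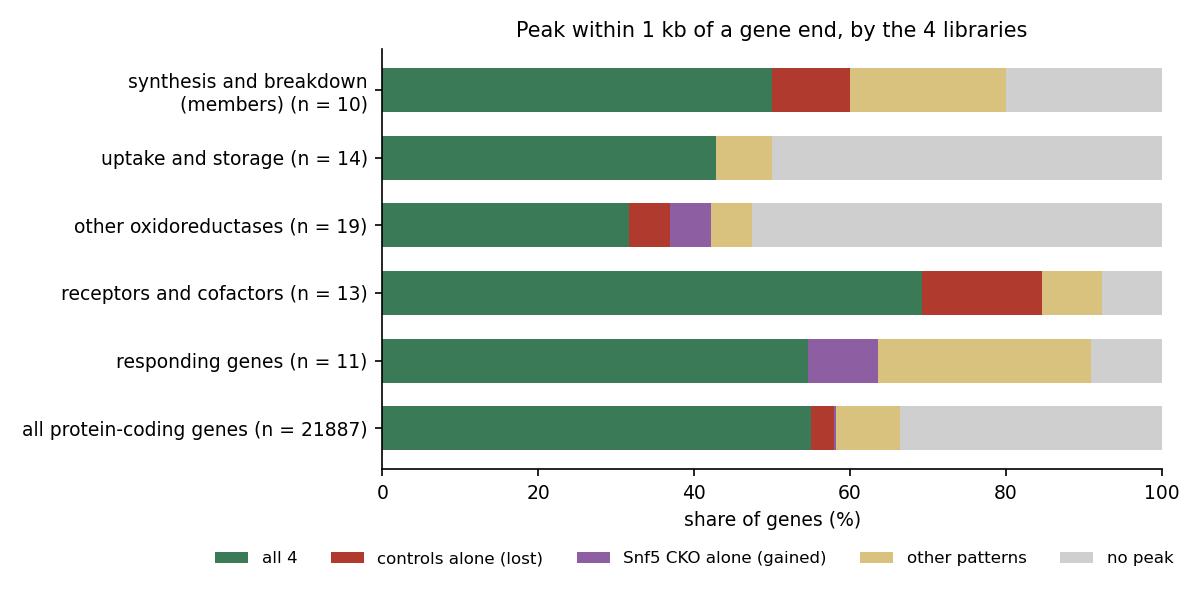
Share of genes in percent, by which of the 4 libraries had a peak within 1 kb of a gene end, for the 10 members, 4 other retinoid gene lists and all 21887 protein-coding genes. The 10 members are 5 kept, 1 lost, 2 with other patterns and 2 with no peak.

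Summed covered bases also differed at lists of genes that mark other cells of the gonad. The 6 markers of mesonephros and surface epithelium summed to 2262 and 1315 covered bases in Snf5 CKO, against 12090 and 9047 in controls, with 1 and 1 open in Snf5 CKO and 3 and 3 in controls. Upk3b and Msln had no peak at their ends in any library. The 11 supporting cell markers summed to 13739 and 12446 covered bases in Snf5 CKO, against 26981 and 22282 in controls. The 9 stroma markers summed to 9430 and 6415 in Snf5 CKO, against 17134 and 15620 in controls, with 7 and 4 open in Snf5 CKO and 7 and 7 in controls. Pdgfra and Col3a1 had no peak at their ends in any library. The 9 endothelium and blood markers summed to 9235 and 8383 in Snf5 CKO, against 13140 and 12851 in controls, and Cdh5, Ptprc, Gata1 and Hbb-bs had no peak at their ends. Of the 8 with a peak in their wider window, 4 had fewer covered bases in both Snf5 CKO libraries and 1, Tek, had more. Fewer were also found at all 6 mesonephros and surface epithelium markers, all 11 supporting cell markers and 6 of the 8 stroma markers with a peak. The 10 germ cell markers summed to 20307 and 15557 in Snf5 CKO, against 22128 and 22251 in controls. Of these 10, 8 had fewer covered bases in both Snf5 CKO libraries and Dppa3 had more, with a median Snf5 CKO share of 66.6% of the control mean. Of the 19200 genes with a peak in their window, 61.1% had fewer covered bases. The median share was 71.0% over the 18191 genes covered in a control. The same median was 19.8% for mesonephros and surface epithelium, 53.2% for supporting cells, 45.7% for stroma and 58.7% for endothelium and blood. The part of these cells, and that of the unknown depth, in the members' values was not tested.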

How the data were processed

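ATAC-seq peak lists of 4 libraries were used. Reads of 50 bp were placed on mm10, per the labels and the submitters' processing notes. Those notes list MACS2 2.2.7.1, Picard 2.25.2, SAMtools 1.10, Bowtie2 2.4.2 and Trim Galore 0.6.5 without their roles. How duplicates and read shifts were handled, and the peak thresholds, were not given in the sources used here. Deposited by the authors are broad peaks called per library, each with a position, a score, a fold enrichment (a ratio to local background), a −log10 p and a −log10 q.

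Peaks of the 4 lists were merged at 1 bp overlap. Genes were placed from RefSeq GRCm38.p6, whose table gives gene ends with no strand or exons. Presence, peak length and covered bases were computed with Python 3.11.15, numpy 2.4.6 and pandas 2.3.3, and the code was tested on simulated data. Groups and replicate numbers come from the labels. The alternatives were a −log10 q of at least 3, lists of the same number of peaks (28625), each library left out, windows of 500 bp and 2 kb, 200 bp of the window covered, flanks of 10 and 50 kb, merging of peaks up to 200 bp apart, pairing by replicate number and, added later, scaling to list length. Members, lists and tests were chosen with earlier results of these data known. All 10 members are named. Of the other retinoid lists, genes lost or gained at their ends are named, except for a withheld item that is not reported here, with Stra8, Bhmg1 and Rec8, and genes named beside them illustrate a count. Krt19, a marker, was also lost.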

Additional observations from a re-analysis of the deposited data

How the results depend on the processing

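No member was gained at its ends under any alternative tried for that count. No kept member had longer end peaks in Snf5 CKO under any alternative tried for that call. Shares over all genes were computed with all peaks, for covered bases after scaling, and for paired libraries, and under no other alternative. Member counts under the other alternatives therefore cannot be read against the background. Whether the members differ from other genes there was not tested. The count of members with fewer covered bases was 9 with all peaks, 6 with a −log10 q of at least 3, 7 with the same number of peaks per list, 9 without any 1 library, 9 and 8 with flanks of 10 and 50 kb, and 5 after scaling to list length, where 1 member (Aldh1a1) had more.

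With a −log10 q of at least 3, 2 members were kept (Rdh10 and Aldh1a3), both with shorter peaks, 0 were lost, and 8 regions were kept, 1 lost and 0 gained. The covered-base difference of Cyp26c1 turned to 84.5 bp, where Control 2 has no peak of that q in the window. With the same number of peaks per list 1 region was lost, and 4 members were kept, all with shorter peaks, as Crabp1 was no longer kept. Windows of 500 bp gave 2 lost members (Cyp26c1 and Crabp2) and windows of 2 kb gave 0.

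Without 1 library, lost members numbered 1 to 2, lost regions 5 to 6, gained regions 1 to 3 and members with more covered bases 0 to 1. Dhrs3 was lost as well without Snf5 CKO 1, and Crabp2 without Snf5 CKO 2. Aldh1a1 had more covered bases without Snf5 CKO 2 or without Control 1.

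Libraries were also paired by replicate number (a replicate block, calling a gene when both same-numbered pairs moved the same way). Then 9 members had fewer covered bases and 1, Aldh1a1, had more, against 67.7% and 5.97% of the 19200 genes with a peak in their window. End peaks were shorter at 5 members (83.0% of kept genes). Same-numbered libraries did not deviate together (r = −0.0138 over 12030 kept genes and 0.00634 over 19200 genes), so the numbers are not taken as pairs. Depth is unknown, so a missing peak may lie below what a library could detect.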
